A study of Mus musculus with 4 samples.

Results

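The 10 genes described here encode the ligand Sonic hedgehog (Shh), its receptor Ptch1, the signal transducer Smo, the co-receptors Gas1, Cdon and Boc, the transcription factors Gli1, Gli2 and Gli3, and the antagonist Hhip. They were chosen by name, with earlier results of these data known. Their 26 probe sets are those that the platform annotation assigns to exactly 1 of these symbols. In all, 18194 genes were named in this way on the 2 array designs, control probe sets included. The signals came from neurospheres, spheres of neural stem cells and progenitors that float in culture, grown from the ventral telencephalon of mouse forebrain at E12.5. The groups were wild type and E2f4 knockout, as labelled, with 1 RNA sample each, and both RNAs were run on 1 Affymetrix MOE430A and 1 MOE430B array. The stated purpose was to find signalling pathways that depend on E2f4, a member of the E2F family that represses transcription together with pocket proteins. The sources used here give neither the strain, nor the design of the E2f4 allele, nor how many embryos or passages stand behind each culture.

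Hedgehog signalling starts when the secreted ligand binds Ptch1, which otherwise holds Smo inactive. Released Smo moves into the primary cilium and shifts the balance of the Gli factors from repressor towards activator forms, and Gli1, Ptch1 and Hhip are themselves transcribed as targets of the pathway. Gas1, Cdon and Boc bind the ligand at the cell surface and promote the response. In the embryonic forebrain the ligand patterns the ventral side and Gli3 repressor shapes the dorsal side.

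In the knockout sample Gas1 was 2.42-fold higher than in the wild type, and of the members above the floor it alone differed by at least 2-fold. Gli2 and Cdon followed at 1.50-fold and 1.35-fold higher, Smo, Gli3 and Boc were at most 1.18-fold higher, and Shh was 1.26-fold lower. Ptch1 had probe sets on both sides of 0, and Gli1 and Hhip, both targets, did not reach the floor in either sample. Measured probe sets are those whose signal on both arrays reached a floor, set at the median signal of its design, 736 on MOE430A and 942 on MOE430B. Of the 26 probe sets, 14 were measured, 1 reached the floor only in the knockout sample and 11 were below it in both, so 8 of the 10 genes had a value. With 1 RNA per genotype there was no spread between samples, so no difference below carries a test, and none is shown to belong to the genotype rather than to the culture.

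Of the 8 measured genes, 6 were higher in the knockout sample and 2 lower, where 49.8% of all 10171 measured genes were higher. The median of their log2 ratios (knockout over wild type) was 0.23, against -0.001 over all measured genes, and 0.21 over the 7 genes other than Gas1. The size rule of 2-fold was met by 1 of the 8 genes, against 1.01% of all measured genes, and by 2 of the 14 probe sets, against 1.64% of probe sets on both designs. As the members were chosen with earlier results of these data known, these comparisons describe the list and are no test of it.

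**Figure D1:**
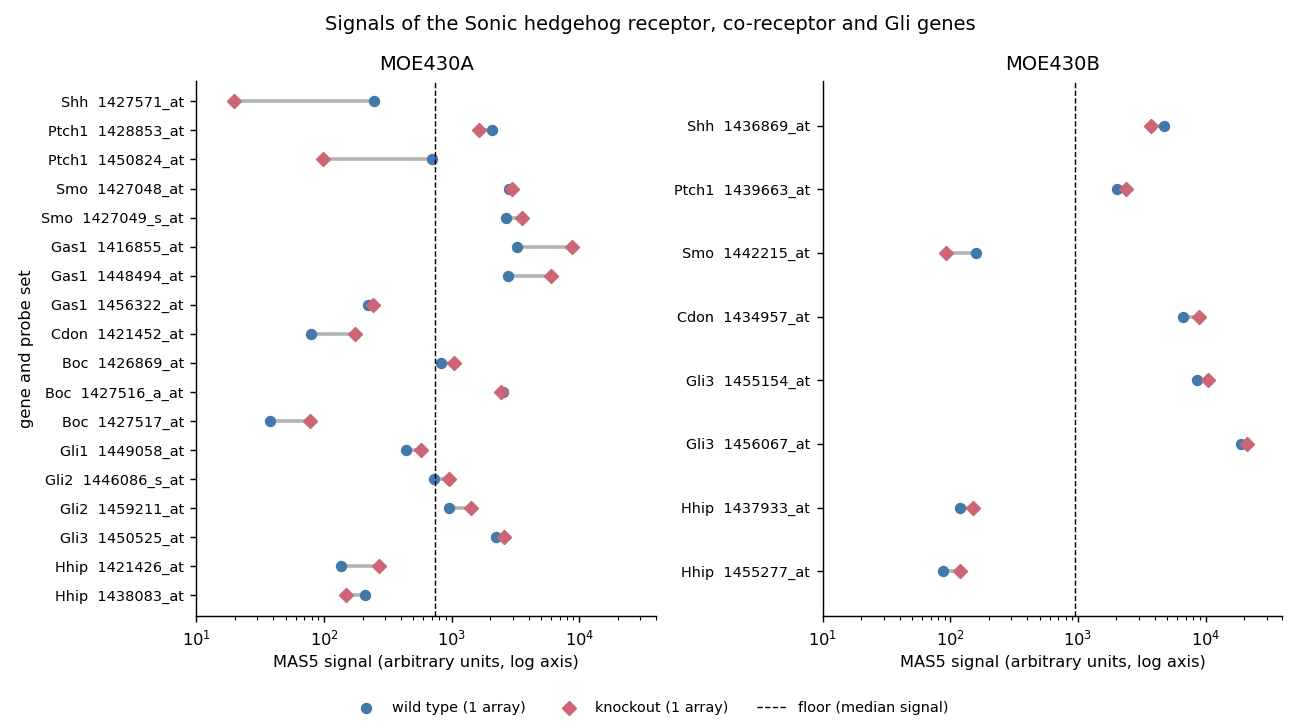
MAS5 signal of each member probe set (log axis, arbitrary units) in wild type (circles) and knockout (diamonds), 1 array each, with the floor of each design as a dashed line. The wild-type and knockout symbols lie far apart for 2 Gas1 probe sets above the floor. Below it they lie farthest apart for Shh and Ptch1, with the knockout lower. Dim probe sets of Cdon and Boc are also apart with the knockout higher, and that of Smo with the knockout lower. Those of Hhip go both ways.

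Median signals of both genotypes agreed closely, at 735 to 736 on MOE430A and 941 to 942 on MOE430B. Gapdh signal at its 3' end over that at its 5' end, which tracks RNA integrity, ran from 0.799 to 0.948 over the 4 arrays. E2f4 had 1 probe set, with 1812 in wild-type and 1535 in knockout neurospheres, a log2 ratio of -0.24; the sources used here do not say whether it lies in the deleted stretch, so it does not check the label. The samples also differed in Xist, the RNA that coats the inactive X chromosome, with signals of 8980 and 1178, and its part in the results was not tested. For the error of a single ratio, 99 probe sets measured on both designs gave an SD of 0.22 on the log2 scale. These were bright, with median wild-type signals of 3589 and 10107, and dimmer probe sets scattered more widely.

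Shh, the ligand, was read by 1 measured probe set, on MOE430B, with a signal of 4743 in wild-type and 3749 in knockout neurospheres. The knockout sample was the lower one, by 0.34 on the log2 scale. Among the 500 measured probe sets nearest in signal on that design, the central 90% of log2 ratios ran from -0.55 to 0.50, so the Shh difference was of a size common at this signal. The second Shh probe set, on MOE430A, read 244 in wild-type and 19.8 in knockout neurospheres. Both values are far below the floor of 736, and no fold is given for them.

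Ptch1, the receptor and a target of the pathway, had measured probe sets that disagreed in direction. On MOE430A the signal was 2059 in wild-type and 1626 in knockout neurospheres, a log2 ratio of -0.34. On MOE430B it was 2015 and 2397, a log2 ratio of 0.25. The gene's mean was -0.04, and each probe set lay inside the central 90% at its signal, which ran from -0.46 to 0.50 on MOE430A and from -0.75 to 0.72 on MOE430B. Another Ptch1 probe set, on MOE430A, read 699.8 in wild-type neurospheres, just under the floor, and 98.8 in knockout neurospheres. It fell short of the floor in both samples and so did not enter the mean, which was -0.98 with no floor.

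Smo, the transducer that Ptch1 holds in check, had 2 measured probe sets on MOE430A that were designed from the same source sequence. One read 2828 in wild-type and 2970 in knockout neurospheres, a log2 ratio of 0.07. The other, whose name ends in _s_at and which can match more than 1 transcript, read 2666 and 3539. Its log2 ratio of 0.412 lay just above the central 90% for its signal, which ended at 0.405. Both were higher in the knockout sample, and they differed from each other by 0.34. The remaining Smo probe set, on MOE430B, read 160 and 91.9, below the floor.

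Gas1, a GPI-anchored surface protein first known for its expression in growth-arrested cells and a co-receptor for the ligand, had the largest difference among the members. Its first probe set read 3258 in wild-type and 8726 in knockout neurospheres, a log2 ratio of 1.42 or 2.68-fold. The second read 2755 and 6011, a log2 ratio of 1.13 or 2.19-fold. Both are on MOE430A, where 0.442% of measured probe sets differed by at least 2-fold either way, and they ranked 6 and 23 from the highest ratio of 10399. The central 90% of ratios at their signals ended at 0.33 and 0.34, and in neither window of 500 did another probe set reach the ratio of the Gas1 probe set. The remaining Gas1 probe set read 221 and 240, below the floor in both samples and nearly level. With no floor, which averages that dim probe set in, the log2 ratio of the gene was 0.88, and with a pseudocount equal to the floor it was 0.74, both under 2-fold; no Gas1 probe set is on MOE430B.

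Because the factor removed in the knockout binds DNA, the region before the Gas1 start is shown, 250 bases from the RefSeq-based promoter table of GRCm38.p6 at chr13:60177536-60177785 on the minus strand. Of the 10 members, 7 had a window in that table. Windows were searched on both strands for the E2F letters TTCCCGC and its variants TTGGCGC and TTCGCGC and TTGCCGC, for the CHR letters TTTGAA of cell cycle genes, for the Gli letters GACCACCCA, and for the CCAAT box CCAAT. Capitals mark a match.
Gas1: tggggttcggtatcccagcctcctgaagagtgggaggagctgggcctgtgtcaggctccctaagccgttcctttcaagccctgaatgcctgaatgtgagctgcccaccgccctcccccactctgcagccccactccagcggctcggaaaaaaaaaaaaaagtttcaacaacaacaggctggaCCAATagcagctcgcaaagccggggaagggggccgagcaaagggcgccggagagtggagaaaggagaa
The Gas1 window held 1 CCAAT box, 68 to 64 bases before the start, as did 33.8% of all 32851 windows at any position. It had no match to the E2F, CHR or Gli letters, which says only that these letters are not in this window.

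Cdon and Boc, related immunoglobulin-superfamily receptors that bind the ligand beside Gas1, showed smaller differences. Cdon was read on MOE430B at 6615 in wild-type and 8914 in knockout neurospheres, a log2 ratio of 0.43. That lay inside the central 90% at its signal, from -0.50 to 0.49, and 14.2% of the measured probe sets on MOE430B had a higher ratio. Its other probe set, on MOE430A, read 78.7 and 174, far below the floor.

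Boc had 2 measured probe sets on MOE430A on opposite sides of 0. One read 823 in wild-type and 1041 in knockout neurospheres, a log2 ratio of 0.34. The other, whose name ends in _a_at for alternative transcripts of 1 gene, read 2521 and 2419, a log2 ratio of -0.06. The mean of 0.14 therefore rested on the first of these, and another read 37.6 and 77.4, below the floor. The 3 co-receptors thus did not move by the same amount, although all had a mean above 0.

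**Figure D2:**
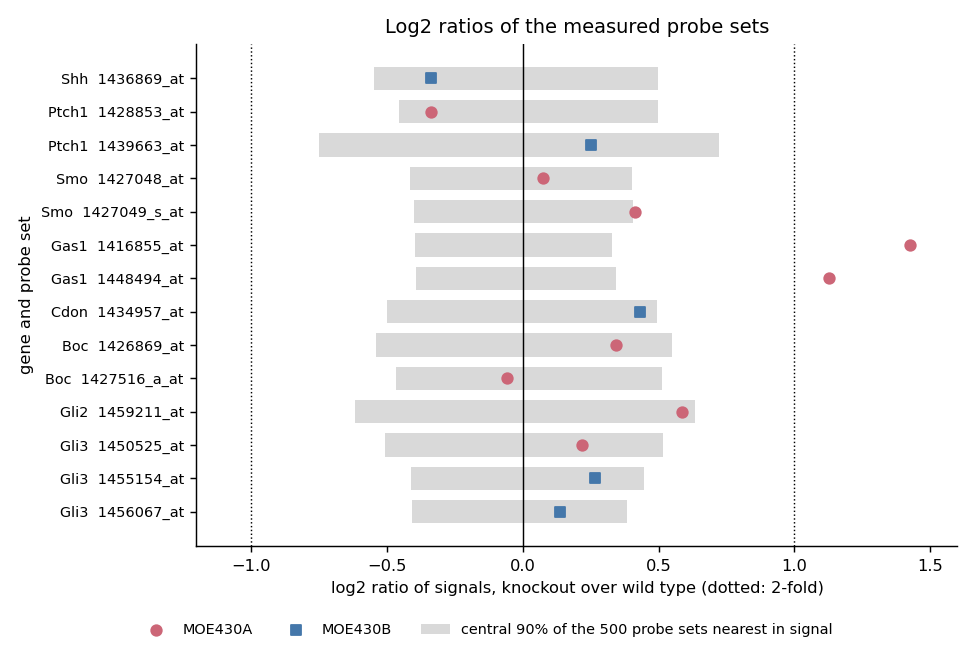
Log2 ratio of knockout over wild-type signal for the 14 measured probe sets, with grey bars for the central 90% of ratios among the 500 measured probe sets of the design nearest in signal; dotted lines mark 2-fold. The 2 Gas1 probe sets, at 1.42 and 1.13, lie far outside their bars, 1 Smo probe set lies just above its bar and the other 11 lie inside.

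Among the Gli factors, Gli2, which supplies most of the activator form, had its higher ratio from a single measured probe set. It read 948 in wild-type and 1420 in knockout neurospheres, a log2 ratio of 0.59, where the central 90% at this low signal ran from -0.62 to 0.63. A second Gli2 probe set, from the same source sequence, read 721 and 950. Only the knockout sample reached the floor, at least 1.29-fold higher there. Both Gli2 readings were thus higher in the knockout sample, close to the floor of 736 and not independent of each other in sequence.

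Gli3, which acts mainly as the repressor form when the ligand is absent, was the member with the most measured probe sets. On MOE430A it read 2220 in wild-type and 2579 in knockout neurospheres, a log2 ratio of 0.22. On MOE430B the probe sets read 8627 and 10357, and 19090 and 21002, with log2 ratios of 0.26 and 0.14. All 3, from 3 different source sequences and on both designs, were slightly higher in the knockout sample, and all lay inside the central 90% at their signals. Among all 3917 genes with more than 1 measured probe set, 42.1% had every probe set on 1 side, and among the 5 members with more than 1 it was 3, Smo, Gas1 and Gli3.

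The Gli3 window, at chr13:15463473-15463722 on the plus strand, is shown because it held E2F letters. Capitals mark the match.
Gli3: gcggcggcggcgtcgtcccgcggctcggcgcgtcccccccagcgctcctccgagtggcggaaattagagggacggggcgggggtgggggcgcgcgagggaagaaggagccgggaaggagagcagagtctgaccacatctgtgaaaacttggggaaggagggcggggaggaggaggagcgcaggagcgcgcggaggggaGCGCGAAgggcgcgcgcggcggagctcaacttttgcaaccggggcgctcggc
The match, GCGCGAA on the opposite strand of TTCGCGC, lies 52 to 46 bases before the start. The Ptch1 window held TTCCCGC, 26 to 20 bases before its start. These 2 of the 7 member windows had a match to the E2F letters, as did 7.89% of all windows of the same length, and the Gli3 and Ptch1 means were 0.21 and -0.04. G and C made up 72.8% of the Gli3 window and 78.4% of the Ptch1 window, against a median of 52.4% over all windows. The E2F letters are themselves rich in G and C, so the share over all windows is not a like comparison. The CHR letters were found in the Cdon and Gli2 windows, 47 to 42 and 17 to 12 bases before the start, and in 16.0% of all windows. For Ptch1, Cdon and Gli2 the start used is not the outer end of the gene record. No member window held the Gli letters, which were in 0.225% of all windows. A match to such letters is a description of the window and no evidence of binding.

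The remaining members, Gli1 and Hhip, are the classical readouts of active signalling together with Ptch1. Gli1 had 1 probe set, on MOE430A, which read 440 in wild-type and 571 in knockout neurospheres. Hhip, which binds the ligand at the cell surface and blocks it, had 4 probe sets, and none exceeded 267 in either sample. They read 136 and 267, 209 and 149, 118 and 150, and 87.0 and 119 in the wild type and the knockout sample. All 5 probe sets were below the floor in both samples, so no ratio is given for Gli1 or Hhip in the main setting. The floor is a median signal and not a limit of detection. Among the alternatives described below, 3 gave Gli1 a value, all higher in the knockout sample, from 0.15 to 0.38. For Hhip 2 did, both higher, at 0.05 and 0.32. These values rest on dim signals.

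**Figure D3:**
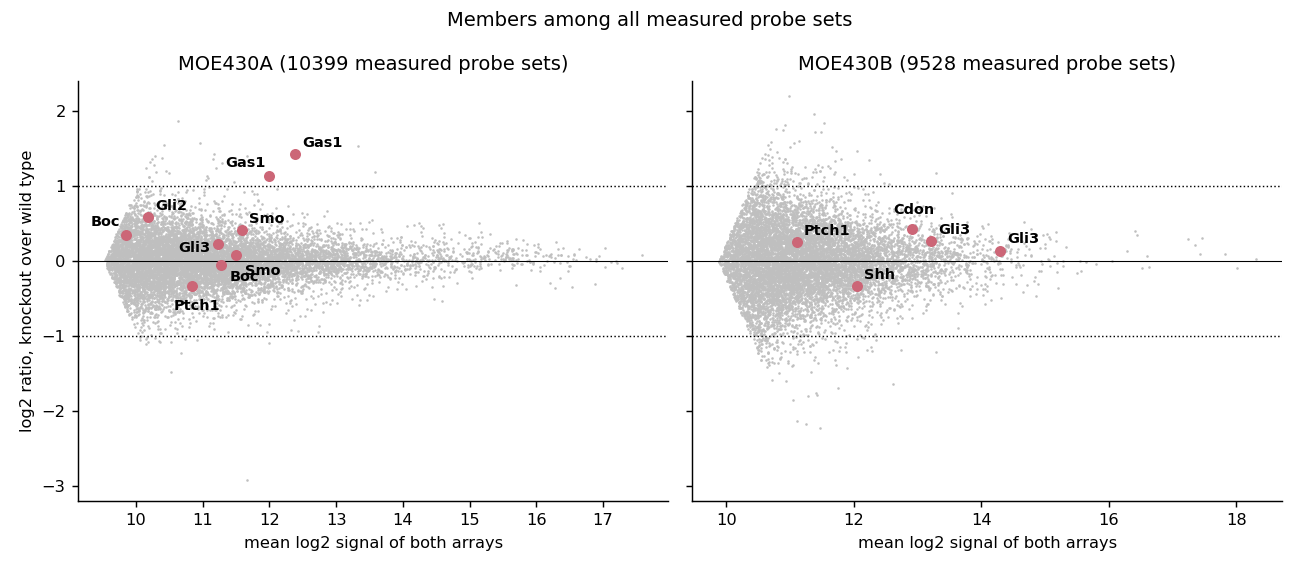
Log2 ratio of knockout over wild type against mean log2 signal for all measured probe sets (grey) of MOE430A (left) and MOE430B (right), with the member probe sets named; dotted lines mark 2-fold. The scatter narrows with signal, and the Gas1 probe sets stand above the grey cloud at their signal.

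A wider list of 58 pathway genes, without the 10 members, was described in the same way, and 39 of the 54 with a probe set were measured. Of these, 24 were higher and 15 lower in the knockout sample (median 0.04), where 49.8% of all measured genes were higher. That share applies also to the counts by role and by marker list below. At the 2-fold size, 0 of 39 differed, against 1.01% of all measured genes. Genes for ligands and their release had 3 of 8 measured: Disp2 and Disp1, of the family that releases the lipid-modified ligand, were at 0.46 and 0.16, and Scube3, a secreted protein, at -0.45. The other ligands, Ihh and Dhh, were below the floor.

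Among receptors and surface regulators, 3 of 5 measured genes were higher. Evc2, a ciliary protein that acts with Smo, read 2366 in wild-type and 4204 in knockout neurospheres, a log2 ratio of 0.83 from 1 probe set on MOE430B, where 2.94% of measured probe sets differed by at least 2-fold. The heparan sulphate proteoglycan Gpc4 was at 0.17, with probe sets at -0.04 and 0.38. Lrp2, an endocytic receptor for the ligand in the forebrain, was at -0.30.

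Cilium and transport genes had a median of 0.04 over 9 measured genes, 5 of them higher. Rab23, a small GTPase that restrains the pathway, was highest at 0.88, with signals of 1251 in wild-type and 2302 in knockout neurospheres on its 1 measured probe set. Dync2h1, the motor of retrograde transport in cilia, read 6743 and 10310, a log2 ratio of 0.61. Ift88, needed to build cilia, was at -0.36.

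Genes of Gli processing and regulation lay closest to 0, with a median of 0.01 over 14 measured genes, 8 of them higher. Stk36, a kinase related to the fly regulator fused, was at -0.58 and Cul3, a ubiquitin ligase scaffold, at 0.26 from 5 probe sets all above 0. Gsk3b, a kinase that phosphorylates Gli proteins on the way to their processing, was at -0.35, which rested largely on 1 of its 6 probe sets at -1.43.

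Among targets, 6 of 8 measured genes were higher, against 49.8% of all measured genes, with a median of 0.06. Of the higher ones, Ccnd1, Bmi1 and Bcl2 were near 0, at 0.007, 0.03 and 0.09, each with probe sets on both sides of 0. Ccnd2, the G1 cyclin D2, was at 0.49, and its 6 measured probe sets all lay above 0, from 0.30 to 0.72. Sfrp1, a secreted Wnt modulator, was at 0.36 with 5 probe sets from -0.22 to 0.73. Nkx2-1, the homeobox gene of the medial ganglionic eminence whose expression needs the ligand, read 1026 in wild-type and 796 in knockout neurospheres, a log2 ratio of -0.36. The targets thus lay on both sides of 0, and Nkx2-2, Nkx6-2, Foxa2 and Foxf2 were below the floor in both samples.

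**Figure D4:**
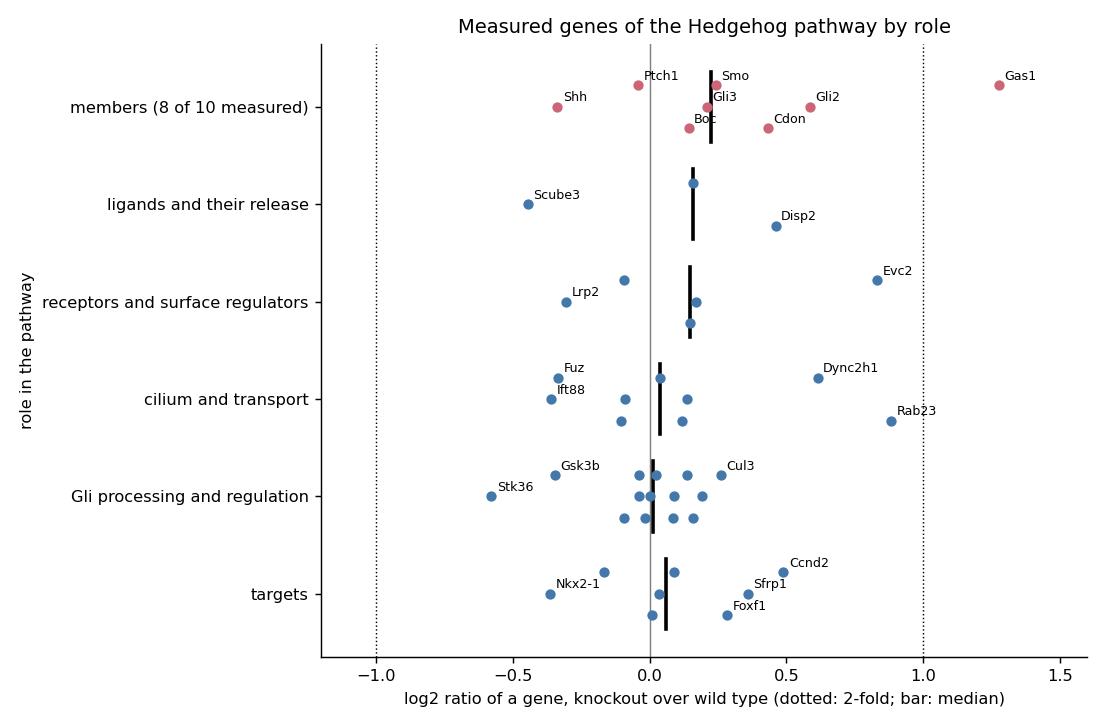
Log2 ratio of knockout over wild type for each measured gene of the Hedgehog pathway by role, members in the top row and the wider list below; black bars are medians and dotted lines mark 2-fold. Gas1, at 1.28, is the one gene past 2-fold, and the genes of Gli processing and regulation cluster near 0.

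Markers of regional identity and of other cell types moved alongside these values, and their part in the member differences was not tested. For the labelled neural origin, all 8 neural progenitor markers were above the floor, with a median of 0.03 from Hes5 at -0.86 to Fabp7 at 0.26. The Hes5 value rested largely on 1 probe set at -1.48, whose name ends in _x_at, while the other was at -0.24. The 4 measured ventral telencephalon markers were all lower, with a median of -0.32 and Dlx2 farthest at -0.52. Lhx6, a ventral marker of migrating interneurons named here after its values were seen, reached the floor only in the wild type: 1 probe set read 2678 in wild-type and 597 in knockout neurospheres, at least 3.64-fold lower, and the other 902 and 539, at least 1.23-fold lower. The signal summed over every probe set of the list, Lhx6 included, was 18130 and 12673. Of the 6 dorsal telencephalon markers, 5 were higher, with a median of 0.48, Eomes at 0.69 and Emx1 at -0.14, and the summed signal was 16327 and 23280 on MOE430A and 10770 and 12570 on MOE430B. Neuron markers were lower in 5 of 6 cases, with a median of -0.18, Map2 at -0.39 and Tubb3 at 0.03, and the summed signal was 129887 and 115234 on MOE430A and 37340 and 29862 on MOE430B. In bulk RNA, fewer cells of a type and less RNA per cell cannot be told apart.

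Gas1 is also expressed by mesenchymal cells, so their markers are given beside it. Of 7 mesenchymal or meningeal markers, only Col1a2 was measured, at 0.10, and Col1a1, Col3a1, Lum, Pdgfrb and Foxc1 were below the floor in both samples. Dcn reached the floor only in the wild type, on MOE430B, at 1232 in wild-type and 667 in knockout neurospheres, at least 1.31-fold lower. Its MOE430A probe set read 114 and 276, below the floor in both samples. The summed signal of the list was 3430 in wild-type and 3883 in knockout neurospheres on MOE430A, and 1407 and 694 on MOE430B. Of the endothelial list 2 of 5 were measured, Cldn5 at 0.15 and Kdr at 0.38, of the microglia or macrophage list 1 of 5, Csf1r at -0.25, and of the oligodendrocyte lineage list 1 of 5, Sox10 at -0.66. Of the erythroid markers 3 of 5 were measured and all were lower, from -0.88 for Hbb-bh1 to -0.33 for Hbb-y. Their summed signal, with that of Alas2 below the floor, was 279129 in wild-type and 214868 in knockout neurospheres on MOE430A. The 3 Hbb-y probe sets, which read an embryonic globin of red blood cells, gave signals from 47498 to 89828 in RNA labelled as neurospheres, and how such RNA came to be in the samples was not tested.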

How the data were processed

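Total RNA of the 2 neurosphere samples was prepared on RNeasy columns and labelled with biotin without further amplification, per the labels' protocols. The deposited signal intensity values are linear and were made by the authors with MAS5, per the submitters' processing notes, which give no version. From the values, the authors scaled each array to a trimmed mean of about 1500 (2% trimmed at each end). Per the file headers, hybridisation took 2 days, 1 for each design, and each day held both genotypes, so each ratio was formed within a day.

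Within each design, 64 control probe sets were left out, and the log2 of knockout signal over wild-type signal was taken for the others and centred on the median of the 10399 (MOE430A) or 9528 (MOE430B) measured probe sets. Measured probe sets of a gene were averaged, and a probe set above the floor in 1 sample gave a bound, the brighter signal over the floor. A signal of 1 probe set was not read as a higher or lower RNA level than that of another, since probe sets differ in response, and a sum over a marker list describes that list between samples alone. Gene names came from the platform annotation, and the 10 members' identifiers matched their symbols in a RefSeq table. All 26 member probe sets are described; of the wider list, up to 3 genes farthest from 0 per role are named, and of each marker list the farthest on each side, with other genes named after their values were seen. The members, lists and motifs were chosen with earlier results of these data known. Likeness of pattern was not computed, since 2 samples give none. The calculation was tested on simulated arrays. With 1 RNA sample per genotype, the precision of a genotype difference cannot be estimated. The 11 alternatives were floors at the 30th and at the 70th percentile of signals, omitting the floor, a pseudocount, no centring, quantile normalization, lowess (span 0.3), taking the brightest probe set, leaving out _x_at, _s_at and _a_at probe sets, and each design alone. Python 3.11.15, numpy 2.4.6, pandas 2.3.3, statsmodels 0.14.6 and matplotlib 3.10.9 were used.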

Additional observations from a re-analysis of the deposited data

How the results depend on the processing

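With 1 RNA per genotype, values carry no test, and a median or ratio was taken as moved where it changed by more than the SD of 0.22 for a single ratio, divided by the square root of the number of genes or probe sets, and a count where it changed by more than 1.5 times, whatever its denominator. The member median of 0.23 was 0.34 with no floor, 0.12 with the pseudocount and 0.33 with the brightest probe set. The member genes higher, 6 of 8, were 3 of 4 on MOE430B alone, the same share over fewer genes, and 4 of 7 with the floor at the 70th percentile. The 2 probe sets at least 2-fold different were 6 of 26 with no floor, 4 higher and 2 lower. In that setting 17.5% of all genes, after averaging their probe sets, passed that size, and the share over all probe sets was not computed. The count was 1 with the pseudocount, 1 with the brightest probe set, which keeps 1 per gene, and 0 of 5 on MOE430B alone. The median of the wider list, 0.04, was 0.12 with the floor at the 30th percentile, 0.10 with no floor, 0.11 on MOE430B alone and -0.041 with the brightest probe set. Gas1 kept its direction in 10 of 10 alternatives that gave it a value, from 0.74 to 1.42. Cdon, Gli2 and Gli3 were higher and Shh lower in every alternative that gave them a value, 10, 9, 11 and 10 in turn. All alternatives reread the same 4 arrays, so these tallies, that of Gas1 included, are not repeated observations. Cdon, Gli2 and Shh had 1 measured probe set each in the main setting, and most alternatives used the same signals again. Smo was lower with no floor, at -0.11, Boc was lower with the higher floor and the brightest probe set, and Ptch1 was higher with the brightest probe set and on MOE430B alone, at 0.25. The cause was not tested. No paired analysis was possible because each genotype had 1 RNA sample.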

Other observations

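Some probe sets of the wider Hedgehog list were above the floor in 1 sample alone, and those named here were chosen after their values were seen. A second Rab23 probe set, on MOE430A, read 330 in wild-type and 1529 in knockout neurospheres, at least 2.08-fold higher, while another read 432 and 221, below the floor. Tulp3, a protein that carries receptors into the cilium, had probe sets of at least 1.83-fold and 1.41-fold higher in the knockout sample, and a further one below the floor in both. Disp2 had probe sets of at least 1.95-fold and 1.11-fold higher. In all, 9 such probe sets, from 7 genes, were higher in the knockout sample and 5, from 5 genes, lower. The split of such probe sets over the whole arrays was not counted, so these counts are not read as a lean of the pathway. Of the lower ones, Mycn, a target of the pathway, had a probe set that read 1101 and 330, at least 1.50-fold lower, and Olig2, an oligodendrocyte lineage and ventral progenitor gene, read 1022 and 725, at least 1.39-fold lower. Probe sets of Btrc, Intu and Stk36 were lower by at least 1.24-fold, 1.18-fold and 1.04-fold. Measured probe sets of Btrc ran from -0.79 to 1.08 with a mean of 0.02, and those of Intu from -0.59 to 0.87 with a mean of 0.14. Neither gene was thus lower as a whole, while the measured Stk36 probe set was at -0.58.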
